A study of Mus musculus with 8 samples.

Results

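The nuclear hormone receptors are transcription factors that bind small fat-soluble ligands such as thyroid hormone, steroids, retinoids, fatty acids, oxysterols and bile acids, or have no known ligand (the orphan receptors). Most carry a zinc-finger DNA-binding domain and a ligand-binding domain, many pair with a retinoid X receptor (RXR), and they switch between coactivator and corepressor proteins at their target genes. In liver they are known for the control of bile acid, lipid and drug metabolism, and in hypothalamus for feedback by thyroid and steroid hormones and for neuronal identity. The family was taken as 42 genes, and a gene was followed through the probe whose annotation gave that symbol and no other. There were 14411 such probes among the 33012 on the array, for 13840 genes. A receptor with several such probes was read from the brightest, which concerned 2 genes (Esrrg and Pgr). In all 31 receptors had a probe, and the 11 others (Rara, Rorb, Nr1h2, Hnf4a, Rxra, Nr2c2, Nr2e3, Nr2f6, Esrrb, Nr3c2 and Nr5a1) were not analysed here.

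Hypothalamus and liver of male mice were profiled in 2 strains, C57BL/6J (B6) and B6.CAST-17 homozygous congenics, which carry a stretch of chromosome 17 from CAST mice on a B6 background. Mice were on chow or had a choice of 2 diets, carbohydrate with protein or fat with protein, each with 22% protein (2-choice). Of 20 to 25 mice tested per strain over 10 days, those with the most divergent nutrient intake were kept, went back to chow for 6 weeks and met the choice again for 1 day, with tissue taken on day 2 of the choice, 4 h ahead of lights out. A collection time for the chow mice was not established here. Each of the 8 combinations of tissue, strain and diet was 1 array of RNA pooled from 6 mice, so no combination was repeated, and error comes from the agreement between strains and diets. Values are log2 intensities, quantile normalized over the 8 arrays, and 4 values in a row always stand in the order B6 chow, congenic chow, B6 2-choice and congenic 2-choice. Levels are set side by side between arrays for 1 probe, never between probes.

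The tissues had the markers of their labels. All 5 measured hepatocyte markers were higher in liver, with list means of 19.18 to 19.83 there against 8.52 to 10.2 in hypothalamus, and the 7 hypothalamic peptide genes had means of 14.68 to 15.34 in hypothalamus and 8.73 to 9.19 in liver. Neuron markers had means of 15.85 to 16.04 in hypothalamus and 9.57 to 10.43 in liver, with Snap25 dim on every array. The hypothalamus chow pair stood apart: its strains correlated at r = 0.882 over all probes, against 0.971 for the hypothalamus 2-choice pair and 0.931 and 0.933 for the liver pairs. Over 433 chromosome 17 probes, strain differences correlated at 0.489 between the liver pairs and at -0.271 between the hypothalamus pairs. The free-text description of the hypothalamus congenic chow sample also names B6, so its strain is given as labelled, and results that rest on it are given with and without it. In these bulk samples, fewer cells of a type and less RNA per cell cannot be told apart.

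Sequences before the start sites of 5 receptors are shown because receptors higher in liver had CpG-poor as well as CpG-rich promoters, described after the tissue comparison. They are the 250 bases upstream of the annotated start, from RefSeq on GRCm38.p6, 5′ to 3′ on the gene's strand, with each CpG in capitals. Nr1i3 lies at chr1:171213720-171213969 (plus strand), Nr1h4 at chr10:89506659-89506908 (minus strand), Nr0b2 at chr4:133553126-133553375 (plus strand), Ppara at chr15:85735526-85735775 (plus strand) and Esrra at chr19:6921809-6922058 (minus strand).
Nr1i3: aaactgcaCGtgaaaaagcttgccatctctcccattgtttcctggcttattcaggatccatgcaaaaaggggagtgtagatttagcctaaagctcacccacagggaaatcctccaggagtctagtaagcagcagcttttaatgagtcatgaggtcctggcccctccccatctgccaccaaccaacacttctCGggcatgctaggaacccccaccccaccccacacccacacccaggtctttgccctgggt
Nr1h4: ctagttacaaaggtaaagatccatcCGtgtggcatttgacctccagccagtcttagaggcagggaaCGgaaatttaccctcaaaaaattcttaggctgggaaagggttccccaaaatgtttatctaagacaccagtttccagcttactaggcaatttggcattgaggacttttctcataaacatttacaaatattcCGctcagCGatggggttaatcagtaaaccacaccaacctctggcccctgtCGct
Nr0b2: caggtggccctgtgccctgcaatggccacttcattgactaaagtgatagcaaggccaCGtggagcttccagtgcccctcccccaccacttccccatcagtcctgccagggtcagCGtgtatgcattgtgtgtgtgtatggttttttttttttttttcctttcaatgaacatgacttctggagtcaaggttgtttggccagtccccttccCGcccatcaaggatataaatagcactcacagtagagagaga
Ppara: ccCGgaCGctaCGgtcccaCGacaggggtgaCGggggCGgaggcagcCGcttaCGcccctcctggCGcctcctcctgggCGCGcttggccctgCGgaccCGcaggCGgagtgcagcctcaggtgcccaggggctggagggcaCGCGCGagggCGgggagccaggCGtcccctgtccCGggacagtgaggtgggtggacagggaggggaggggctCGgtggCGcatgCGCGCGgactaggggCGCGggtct
Esrra: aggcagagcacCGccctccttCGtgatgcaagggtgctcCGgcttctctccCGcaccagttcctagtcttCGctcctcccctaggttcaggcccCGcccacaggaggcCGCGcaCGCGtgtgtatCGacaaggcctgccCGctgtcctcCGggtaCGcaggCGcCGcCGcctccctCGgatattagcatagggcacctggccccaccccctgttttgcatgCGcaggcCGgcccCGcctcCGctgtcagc

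The first comparison asked where each receptor was expressed. The bile acid receptor Nr1h4, the drug sensors Nr1i2 and Nr1i3, the fatty acid receptors Ppara and Pparg, the oxysterol receptor Nr1h3, and Nr5a2 and Nr0b2 were higher in liver, by 7.25-fold for Nr5a2 and up to 154-fold for Ppara and at least 114-fold for Nr1h4. The thyroid hormone receptor Thra and the neural orphans Nr2f1 and Nr2e1 were higher in hypothalamus, by 29.3-fold, 12.9-fold and at least 3.65-fold. A probe was tested when its mean over the arrays reached the 40th percentile of all probes, a log2 level of 9.24, which 22 of the 31 receptors did. limma on the 4 matched liver and hypothalamus pairs, with Benjamini-Hochberg adjustment over 19807 probes and a threshold of 0.05, called 16 of the 22, 12 higher in liver and 4 higher in hypothalamus. Of all probes tested 49.1% were called, 24.1% higher in liver and 25% higher in hypothalamus. The tested receptors had a median log2 difference, liver minus hypothalamus, of 1.19, against 0.04 over all probes tested. These receptors passed a filter on the mean of both tissues, so the 22 do not stand for the whole family. Nr1h4, Nr1i2, Nr1i3, Pparg and Nr0b2, with hypothalamus means of 7.83 to 8.98, passed it only through liver. Nr2e1, with a liver mean of 8.63, passed it only through hypothalamus. The filter thus in part sets these counts and the median.

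**Figure D1:**
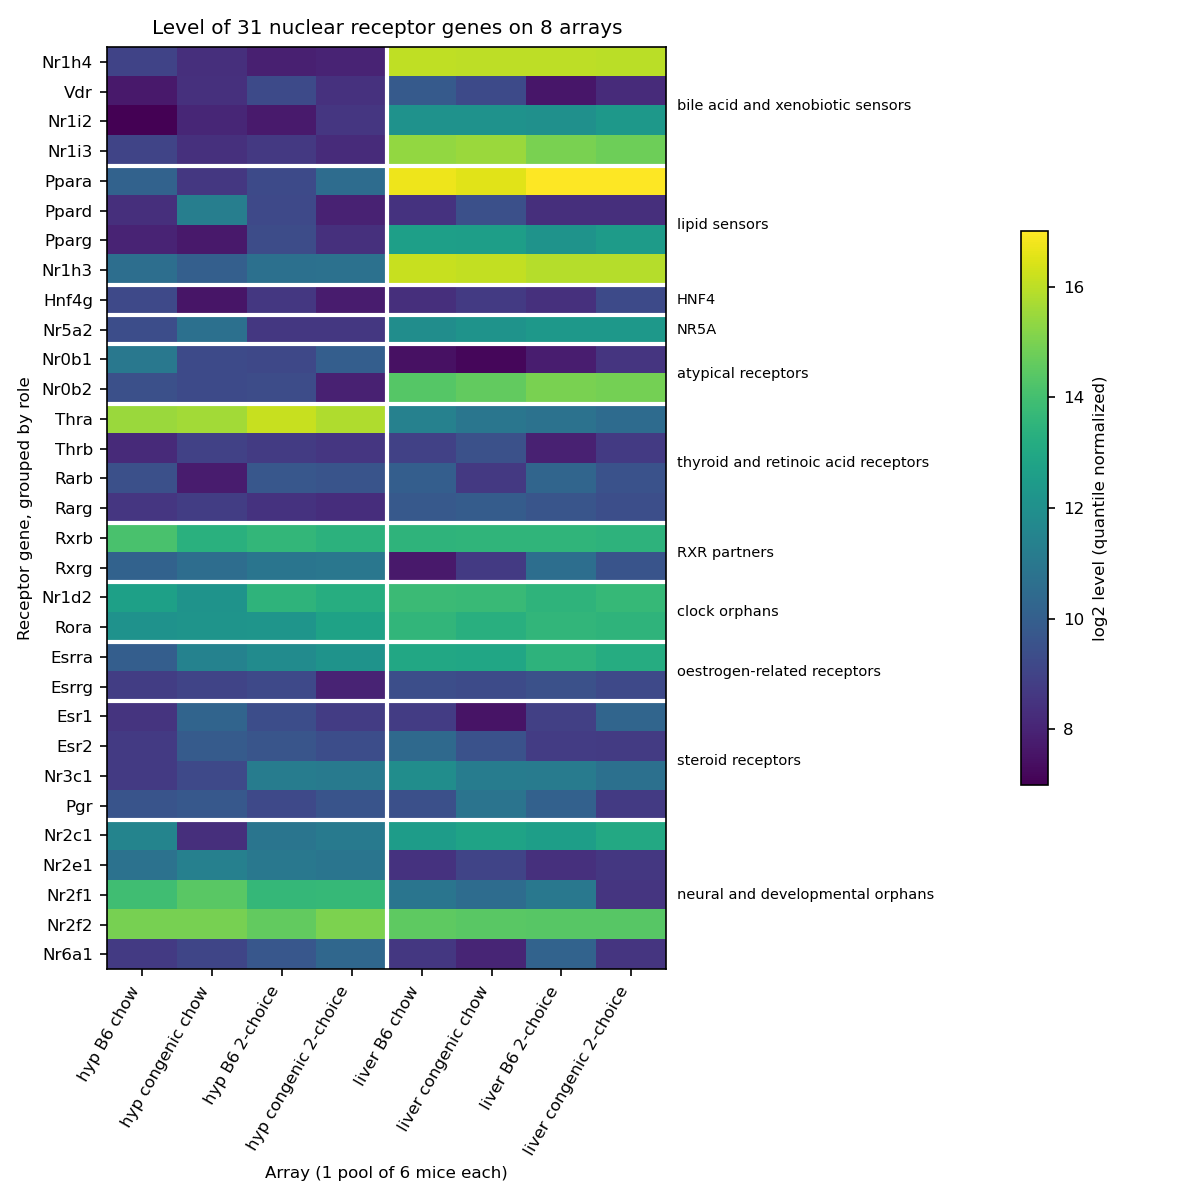
Heat map of the log2 level of 31 receptor genes (rows, grouped by role) on 8 arrays (columns, 4 of hypothalamus at the left and 4 of liver at the right). Colours are read along a row: Nr1h4, Nr1i3, Ppara and Nr1h3 turn from dark in hypothalamus to bright in liver, Thra turns the other way, and most steroid receptors are dark in both.

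Among bile acid and xenobiotic sensors, Nr1h4 (FXR), the bile acid receptor, read 9.0, 8.33, 7.89 and 8.0 in hypothalamus and 16.03, 16.02, 15.99 and 15.98 in liver. The 4 livers lay within 0.06 of each other and far above every hypothalamus, all 4 of which were under 9.17, the level below which a probe was not tested in hypothalamus. The fitted difference was 7.70 ± 0.30 (SE, 4 pairs; limma adjusted p = 8.28e-09), or at least 114-fold against that level, which stands in for lower values wherever the mean of a tissue is under it. Nr1i3 (CAR), the constitutive androstane receptor that induces drug-metabolizing enzymes, read 9.06, 8.39, 8.67 and 8.23 in hypothalamus and 15.39, 15.49, 15.00 and 14.79 in liver. Every liver was bright and every hypothalamus dim. The difference was 6.58 ± 0.30 (limma adjusted p = 3.22e-08), at least 64.1-fold. Nr1i2 (PXR), the pregnane X receptor for drugs and bile acids, read 6.92, 8.08, 7.74 and 8.59 in hypothalamus and 12.11, 12.10, 12.02 and 12.35 in liver. Here too no hypothalamus reached the level for testing, and the difference of 4.31 ± 0.46 (limma adjusted p = 2.08e-05) was at least 7.86-fold. The vitamin D receptor Vdr stayed between 7.61 and 9.84 on all arrays, with the tissues overlapping, and its mean was under the filter.

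Of the lipid sensors, Ppara, the fatty acid receptor that drives fat oxidation in liver, read 10.14, 8.63, 9.23 and 10.54 in hypothalamus and 16.74, 16.55, 17.20 and 17.10 in liver. The tissues were far apart (7.26 ± 0.30, limma adjusted p = 1.38e-08). Its hypothalamus values spread over 1.92, with the highest in the congenic 2-choice pool. The mean of the 5 hepatocyte markers was also highest there (10.2, against 8.52 to 9.52 in the other three), through Alb (11.27) and Apoa1 (10.95), while Fgb, Tat and Ttr were each highest in another pool, and whether these are linked was not tested. Nr1h3 (LXR alpha), an oxysterol receptor, read 10.63, 10.01, 10.68 and 10.74 in hypothalamus and 16.16, 16.07, 15.90 and 15.90 in liver. It was 45.0-fold higher in liver (5.49 ± 0.24, limma adjusted p = 1.86e-08), with no overlap. Pparg, known as the receptor of fat cell formation, read 8.01, 7.70, 9.32 and 8.38 in hypothalamus and 12.65, 12.59, 12.13 and 12.48 in liver. With 3 of the 4 hypothalamus arrays under the level for testing, it was at least 9.55-fold higher in liver (4.11 ± 0.48, limma adjusted p = 4.14e-05). Ppard, a fatty acid receptor of many tissues whose gene is on chromosome 17, was under the filter at 8.33, 11.26, 9.20 and 7.95 in hypothalamus and 8.48, 9.45, 8.34 and 8.35 in liver. Its highest value was that of the hypothalamus congenic chow array.

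Nr0b2 (SHP), a receptor without a DNA-binding domain that FXR induces and that represses bile acid synthesis, read 9.45, 9.25, 9.32 and 7.91 in hypothalamus and 14.36, 14.60, 14.97 and 14.92 in liver. Its hypothalamus mean of 8.98 was under the level for testing, and it was at least 42.7-fold higher in liver (5.73 ± 0.38, limma adjusted p = 5.28e-07). Nr5a2 (LRH-1), an activator of bile acid synthesis genes, read 9.37, 10.68, 8.61 and 8.61 in hypothalamus and 11.90, 12.12, 12.34 and 12.34 in liver. Every liver was above every hypothalamus (2.86 ± 0.49, limma adjusted p = 0.00065, and 3.47 without the congenic chow pair). Nr0b1 (DAX1), the other receptor of this kind and known in hypothalamus, pituitary and adrenal, ran the other way. It read 11.00, 9.25, 9.17 and 9.98 in hypothalamus and 7.46, 7.17, 7.79 and 8.54 in liver, without overlap, but its mean was under the filter and it was not tested. Against the filter level of liver its hypothalamus mean was at least 1.64-fold higher. Hnf4g, a paralogue of the hepatocyte regulator HNF4 alpha, stayed between 7.55 and 9.23 on all 8 arrays.

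Of the thyroid hormone receptors, Thra read 15.48, 15.62, 16.15 and 15.79 in hypothalamus and 11.38, 10.93, 10.75 and 10.50 in liver. The lowest hypothalamus was over 4 log2 units above the highest liver, and the difference was -4.87 ± 0.26 (limma adjusted p = 1.06e-07). Thrb, the form known as the main thyroid hormone receptor of liver, was under the filter with this probe, at 8.19 to 8.93 in hypothalamus and 7.91 to 9.47 in liver. Of the retinoic acid receptors, Rarb was at 7.78 to 9.73 in hypothalamus and 8.67 to 10.27 in liver (0.48 ± 0.45, limma adjusted p = 0.41). Rarg was at 8.30 to 8.80 in hypothalamus and 9.42 to 9.91 in liver, which did not overlap, but its overall mean was under the filter.

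Of the RXR partners, Rxrb, on chromosome 17, was in both tissues, at 14.12, 13.33, 13.62 and 13.41 in hypothalamus and 13.50, 13.55, 13.56 and 13.47 in liver. The 4 livers were within 0.10 of each other, and the difference was -0.10 ± 0.22 (limma adjusted p = 0.73). Rxrg, the form known in brain and muscle, read 10.13, 10.58, 10.90 and 10.97 in hypothalamus and 7.70, 8.68, 10.61 and 9.58 in liver. The groups overlapped through the B6 2-choice liver. Its difference of -1.50 ± 0.50 (limma adjusted p = 0.0285) was called with all 4 pairs but not without the B6 chow pair (-1.26), the congenic chow pair (-1.44) or the congenic 2-choice pair (-1.45).

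The clock orphans were in both tissues. Rora, an activator of the clock gene Bmal1, read 12.10, 12.18, 12.22 and 12.78 in hypothalamus and 13.60, 13.32, 13.60 and 13.52 in liver. Liver was higher in all 4 pairs, by a mean of 2.28-fold (1.19 ± 0.24, limma adjusted p = 0.00196). Nr1d2 (REV-ERB beta), a repressor of the same gene, read 12.69, 12.12, 13.51 and 13.24 in hypothalamus and 13.80, 13.78, 13.52 and 13.69 in liver. The hypothalamus chow arrays were the lowest, and in the B6 2-choice pair the tissues differed by less than 0.02. The call (0.81 ± 0.29, limma adjusted p = 0.0383) was lost without the B6 chow pair (0.70), the congenic chow pair (0.52) or the congenic 2-choice pair (0.94), and the 2-choice pairs alone gave 0.22.

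Esrra (ERR alpha), an orphan that controls mitochondrial genes, read 9.97, 11.44, 11.81 and 12.14 in hypothalamus and 12.98, 12.93, 13.46 and 13.18 in liver. It was 3.47-fold higher in liver (1.80 ± 0.35, limma adjusted p = 0.00152), with the B6 chow hypothalamus far under the others. Esrrg, its paralogue, was at 7.98 to 9.19 in hypothalamus, 9.20 to 9.47 in liver, and not tested. The steroid receptors were not called. Nr3c1, the glucocorticoid receptor, read 8.70, 9.19, 11.19 and 11.12 in hypothalamus and 11.92, 11.21, 11.16 and 10.71 in liver. The chow arrays separated the tissues and the 2-choice arrays did not (1.20 ± 0.61, limma adjusted p = 0.132). The oestrogen receptor gene Esr2 was at 8.69 to 9.89 in hypothalamus and 8.75 to 10.41 in liver (limma adjusted p = 0.97), and the progesterone receptor gene Pgr at 9.20 to 9.76 and 8.68 to 10.84 (limma adjusted p = 0.741). Esr1, a defining receptor of oestrogen-sensing hypothalamic neurons, was at 8.51 to 10.23 in hypothalamus and 7.54 to 10.26 in liver, so that this probe did not separate the tissues.

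Of the neural and developmental orphans, Nr2f1 (COUP-TF1), a regulator of brain patterning, read 13.93, 14.43, 13.65 and 13.70 in hypothalamus and 10.89, 10.52, 10.99 and 8.55 in liver. All hypothalami were above all livers (-3.69 ± 0.41, limma adjusted p = 2.62e-05), and the congenic 2-choice liver was far under the other three. Nr2e1 (TLX), a factor of neural stem cells, read 10.78, 11.34, 11.00 and 10.90 in hypothalamus and 8.45, 9.04, 8.40 and 8.64 in liver. Every liver was under the level of 9.14 needed for testing in liver (-2.37 ± 0.43, limma adjusted p = 0.00102). Nr2f2 (COUP-TF2), known in veins and ventral hypothalamus, was in both tissues, at 14.59 to 15.02 in hypothalamus and 14.40 to 14.51 in liver. All hypothalami were above all livers, but by only -0.44 ± 0.18, which did not pass (limma adjusted p = 0.0635). Nr2c1 (TR2), a repressor of early globin genes, was higher in liver (2.29 ± 0.52, limma adjusted p = 0.00389). It read 11.51, 8.34, 10.88 and 11.12 in hypothalamus and 12.52, 12.82, 12.60 and 13.04 in liver, and 1 array, the hypothalamus congenic chow pool, lay far under the other hypothalami. Without that array and its liver partner the difference was 1.56 (limma adjusted p = 0.00544). Nr6a1 (GCNF), of germ cells and early embryos, was at 8.70 to 10.34 and 8.03 to 10.17 and was not tested.

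**Figure D2:**
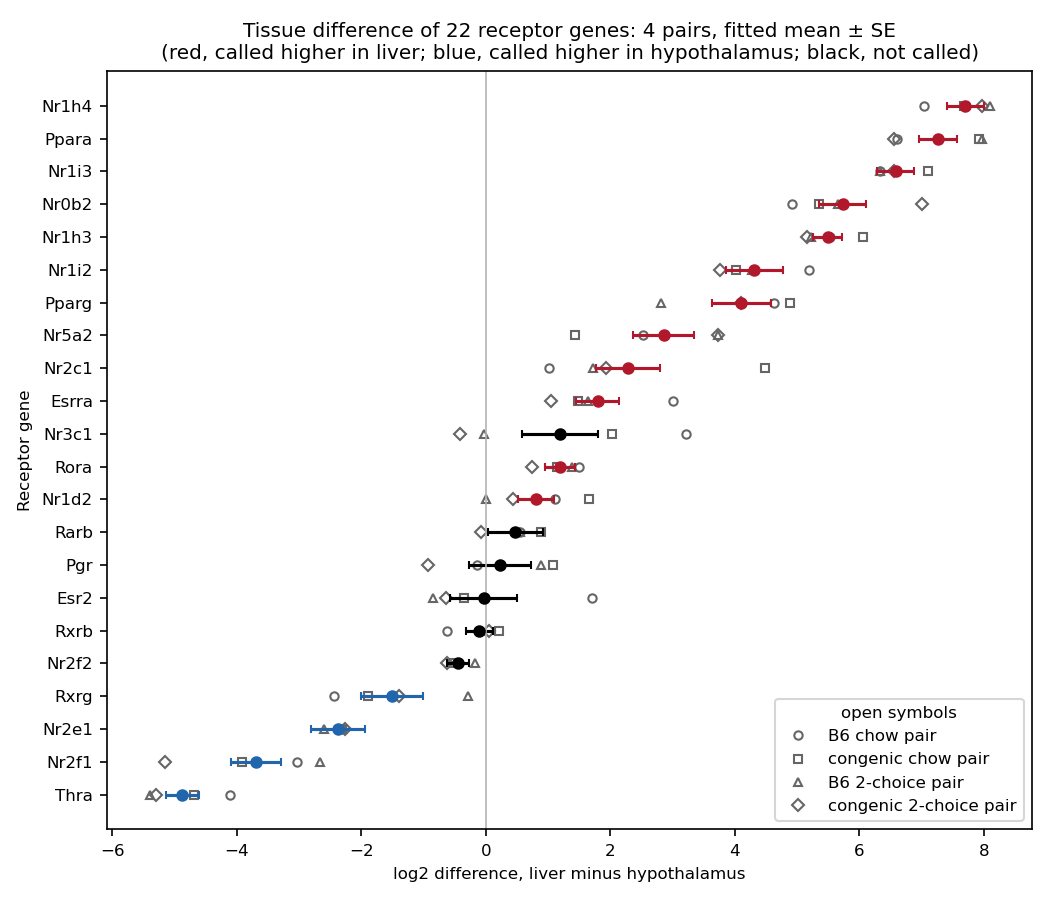
Difference in log2 level, liver minus hypothalamus (x axis), of the 22 tested receptors (y axis). Open symbols are the 4 strain and diet pairs and filled symbols the fitted mean with its SE. From Nr5a2 up, each fitted difference is at least 2.86 and all 4 pairs lie right of 0, while for Nr1d2 and Nr3c1 a 2-choice pair lies at or left of 0.

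The 8 liver-high receptors (Ppara, Pparg, Nr1h3, Nr1h4, Nr1i2, Nr1i3, Nr5a2 and Nr0b2) and 3 hypothalamus-high receptors (Thra, Nr2f1 and Nr2e1) were called under all 11 or 12 alternatives in which they could be tested. Without the hypothalamus chow arrays and their liver partners, 11 receptors were called higher in liver and 3 higher in hypothalamus. Full separation of the 4 livers from the 4 hypothalami was seen in 12 tested receptors with liver above, against 23.8% of all probes tested, and in 4 with hypothalamus above, against 23.7%. These 16 were not the 16 called: Nr2f2 separated without a call and Rxrg was called without separating. The filter on the mean of both tissues in part sets these counts too.

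Genes that these receptors are known to control were taken from lists, and 9 of 10 tested PPAR targets were called higher in liver, where 24.1% of all probes were, among them Fabp1 (at least 2813-fold), a fatty acid binding protein, and Acaa1b (10.99 ± 0.30), a peroxisomal thiolase. All 7 tested FXR targets (Cyp8b1, a sterol hydroxylase, at least 445-fold), 8 of 9 CAR and PXR targets (Cyp2c29, a drug-metabolizing P450, at 9.01 ± 0.59) and all 6 HNF4 alpha targets (Ttr at 10.0 ± 0.61) were higher in liver, and none of these 4 lists had a member called lower. LXR targets were mixed, with 7 of 10 higher, among them Cyp7a1 (at least 33.7-fold), the rate-limiting enzyme of bile acid synthesis, and the exporter gene Abcg1 lower (-2.39 ± 0.38). Thyroid hormone targets were split at 4 higher and 2 lower of 7, retinoic acid genes at 5 and 2 of 8, and glucocorticoid targets at 4 and 1 of 7, where 25% of all probes were called lower. Several of these genes are also plain hepatocyte genes, so the counts describe liver as much as any receptor. Several also passed the filter on the mean of both tissues only through liver, which in part sets the high counts. Among them were Fabp1, Cyp8b1 and Cyp7a1, with hypothalamus means of 9.09, 8.61 and 8.08. The FXR list also holds Nr0b2, one of the receptors above. Receptor activity was not tested.

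Coregulators, the proteins that receptors recruit, were read on the same pairs. Of 11 tested coactivators 1 was called higher in liver (Ncoa2, 1.65 ± 0.51) and 3 lower, among them the arginine methyltransferase gene Prmt1 (-2.56 ± 0.20) and Ncoa1 (-1.76 ± 0.21). Of 8 corepressors none was higher and 3 were lower, among them Hr (at least 3.56-fold lower), a corepressor that thyroid hormone induces in brain. With 49.1% of all probes called, these 4 of 11 and 3 of 8 are not above the share of probes in general. Of 4 tested enzymes that make or break down thyroid, steroid and vitamin D hormones, 3 were higher in liver, where 24.1% of all probes were. Dio1, which makes active thyroid hormone, was at least 150.2-fold higher, in the tissue where Thra was lower.

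The promoters of 28 of the 31 receptors had an entry. Over 27025 genes the median was 6 CpG pairs in the 250 bases, and 56.6% had at most 7 and 27.5% at least 15. Of the 12 receptors called higher in liver, 8 differed by more than 5-fold and 4 by less, a split made after the values were seen. Of the 8, Nr1i3, Nr1i2 and Nr5a2 had 2 CpG pairs, Nr0b2 had 3, Nr1h4 had 5 and Nr1h3 had 7, while Ppara had 27 and Pparg 38. The 4 with differences under 5-fold had 15 (Nr1d2), 20 (Nr2c1), 22 (Esrra) and 26 (Rora). The shown sequences make this visible: few capitals in Nr1i3, Nr1h4 and Nr0b2, and many in Ppara and Esrra. Of the hypothalamus-high receptors Nr2f1 had 22, Nr2e1 15 and Rxrg 6, and Nr2f2, in both tissues, had 1, so the split did not run through the whole family. Where a gene has several annotated starts the most upstream was read. Pparg has 3, with 38, 12 and 2 CpG pairs, and Nr2f1 has 2, with 22 and 2. Which start these probes read was not established here. The half-site letters AGGTCA, searched on both strands, were in 7 of 28 receptor promoters (25%) and in 13.8% of all promoters.

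**Figure D3:**
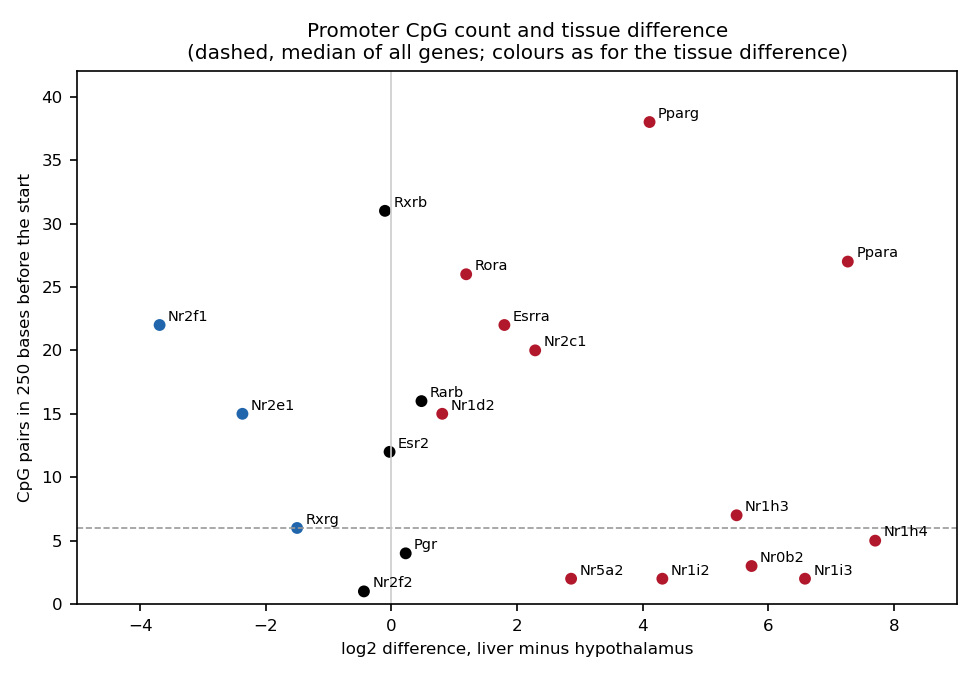
CpG pairs in the 250 bases before the start (y axis) against the log2 difference, liver minus hypothalamus (x axis), of the tested receptors with a promoter entry. Red marks receptors called higher in liver, blue those called higher in hypothalamus and black those not called, and the dashed line is the median of all genes, 6. Of the 8 receptors right of 2.5, 6 lie at 7 or under, and Ppara and Pparg lie far above.

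The study asked which genes the chromosome 17 segment changes. No receptor passed between strains. In liver 23 receptors were tested (those at or above the 40th percentile of liver, 9.14), and limma, in 1 fit of all 8 arrays with strain and diet within tissue, called 0 of 23, with 1 at an unadjusted p under 0.05 and a lowest adjusted p of 0.738; 0% of 19807 probes were called. On the 4 liver arrays alone it also called 0 of 23 (0 at an unadjusted p under 0.05), against 0.954% of probes. Of the 23, 17 had a range under 1 over the 4 livers, with a median range of 0.52, against 54.4% of probes and a median of 0.90. Nr1h4, Nr1h3 and Rxrb moved by less than 0.10 between strains on either diet. With the same sign in both diets and a mean of at least 1.5-fold, 0 receptors were higher in the congenic livers, against 9.17% of probes, and 2 were lower, against 13.2% (22.3% either way). Rarb differed by -1.32 on chow and -0.75 on 2-choice (-1.04 ± 0.63), near the filter level. Nr2f1 differed by -0.37 and -2.45 (-1.41 ± 0.50), which rests on the 2-choice pair.

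Rxrb and Ppard lie on chromosome 17, and neither was called between strains. Rxrb differed by 0.05 on chow and -0.09 on 2-choice in liver and by -0.79 and -0.22 in hypothalamus. Its hypothalamus mean was -0.50 ± 0.23 (limma adjusted p = 0.82). Ppard differed by 2.93 in the hypothalamus chow pair, as labelled, and by -1.26 in the 2-choice pair, and in liver, where it was not tested, by 0.97 and 0.01.

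In hypothalamus limma called 0 of 20 tested receptors between strains (1 at an unadjusted p under 0.05), against 0% of probes, and on the 4 hypothalamus arrays alone 0 of 20 (0 at an unadjusted p under 0.05), against 0.00505%. The chow pair, as labelled, differed more than the 2-choice pair in 15 of the 20, with a median absolute difference of 0.59 against 0.30. The share of all probes that did so was not counted. Over all probes the chow pair also correlated less (r = 0.882 against 0.971), so the count is not read as a trait of the receptors. Nr2c1 was at -3.17 on chow and 0.24 on 2-choice, Esr1 at 1.72 and -0.60, and Ppara at -1.51 and 1.32. The signs of these 3 turned between the pairs. With the same sign in both and at least 1.5-fold, 1 receptor was higher, against 10.1% of probes, and 0 were lower, against 10.1% (20.3% either way). That was Esrra, at 1.47 and 0.33 (0.90 ± 0.36, limma adjusted p = 0.82). Without the B6 or the congenic 2-choice array, which leaves the chow pair, Ppara was at -1.40, Nr2c1 at -3.03 and Esrra at 1.43. Without both chow arrays Ppara was at 1.46, so its direction depends on the pair. Each of these fits leaves 1 hypothalamus pair, and its error comes from the liver arrays alone, so only sizes are given. Whether strain differences were unequal between tissues was tested in 15 receptors, of which limma called 0 (1 at an unadjusted p under 0.05), and of all probes 0% of 15458.

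**Figure D4:**
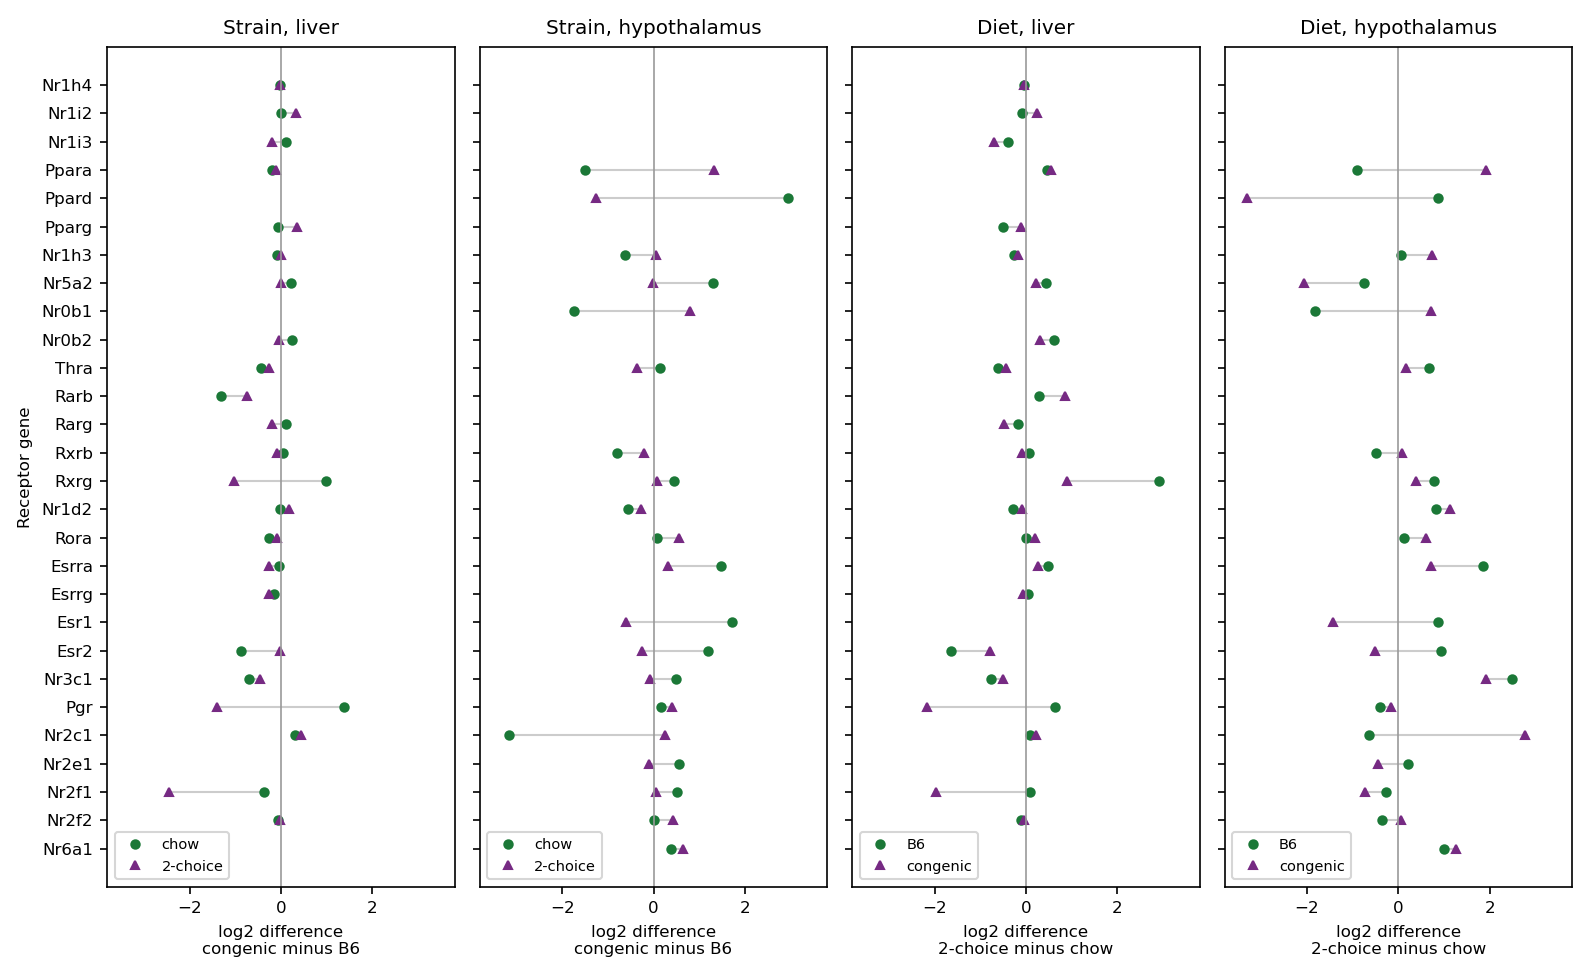
Log2 difference of each tested receptor between strains (left panels, congenic minus B6, chow and 2-choice pairs) and between diets (right panels, 2-choice minus chow, B6 and congenic), in liver and hypothalamus. Grey lines join the 2 pairs of a receptor. Most liver pairs lie close to 0 and to each other, while hypothalamus pairs are often far apart or on opposite sides of 0.

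The other question was how the choice of diets compared with chow. Ppara was higher on 2-choice by 0.46 in B6 and by 0.56 in congenics (0.51 ± 0.56), the dimer partner Rxrb 0.06 and -0.09, and Nr0b2 0.61 and 0.32 (0.46 ± 0.41). Nr1i3 was lower in both strains, by -0.40 and -0.70 (-0.55 ± 0.34), Thra by -0.62 and -0.43 (-0.53 ± 0.24), and Nr1h4 by -0.04 in each. With the error shared by both tissues limma called 0 of 23 receptors (1 at an unadjusted p under 0.05, lowest adjusted p 0.57) and 0% of probes. On the 4 liver arrays alone it called Ppara higher (adjusted p = 0.0468) and Nr1i3 lower (adjusted p = 0.0335), 2 of 23, against 2.75% of probes, 1.46% higher and 1.29% lower. That fit has 1 residual degree of freedom. In both fits diet cannot be told apart from the sets of arrays whose deposited values share a distribution.

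With the same sign in both strains and a mean of at least 1.5-fold, 1 receptor was higher on 2-choice in liver, against 12.1% of probes, and 2 were lower, against 11.8% (23.9% either way). Rxrg was 2.91 higher in B6 and 0.90 in congenics (1.91 ± 0.68, limma adjusted p = 0.57), from a B6 chow value of 7.70 near the floor. Nr3c1 was lower by -0.76 and -0.51 (-0.64 ± 0.51) and Esr2 by -1.63 and -0.78 (-1.21 ± 0.63). Rxrg on chow (7.70 and 8.68) and Esr2 on 2-choice (8.77 and 8.75) were under the liver level of 9.14. Both passed the filter only through the other diet, which in part sets these counts. In the same livers the macrophage markers had list means of 13.17 and 14.00 on chow and 12.65 and 12.33 on 2-choice, and their part in these values was not tested.

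Target lists were read in the same livers. Of 9 tested CAR and PXR targets, 5 were lower on 2-choice with the same sign in both strains and a mean of at least 1.5-fold (11.8% of probes) and 1 was higher (12.1%), with a list median of -1.24, against -0.01 over all probes. Cyp2c55 differed by -2.63 in the B6 and -3.43 in the congenic livers, the glutathione transferase gene Gstm1 by -1.73 and -2.58, and the P450 gene Cyp2b9 by -1.30 and -2.40. None passed with the error of both tissues (limma adjusted p of 0.309 to 0.996). On the 4 liver arrays alone 3 of 9 were called lower, where 1.29% of probes were: Cyp2c55 (-3.03, adjusted p = 1.46e-04), Cyp2c29 (-1.33, adjusted p = 0.001) and the haem synthesis gene Alas1 (-1.24, adjusted p = 5.31e-04). Of their receptors, Nr1i3 differed by -0.55 and Nr1i2 by 0.08. The defining CAR target Cyp2b10 differed by less than 0.05 in either strain.

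Of 6 tested thyroid hormone targets, 4 were higher on 2-choice by the same rule, against 12.1% of probes. The list median was 0.82, against -0.01 over all probes. With the error of both tissues limma called 0 of these 6. G6pc, the glucose-6-phosphatase subunit, differed by 1.33 and 1.75, the fatty acid synthase gene Fasn by 0.82 and 1.48, and Thrsp by 0.83 and 1.25, while Thra was lower and Dio1 differed by 0.11 ± 0.28. The fourth, Gpd2, differed by 0.25 and 0.97. On the liver arrays alone G6pc, Fasn and Thrsp were called, where 1.46% of probes were called higher. Of 10 PPAR targets, 1 was higher by this rule, Pdk4 (0.38 and 2.46), and none lower, with a median of 0.12, so that their share was near that of all probes. These genes also answer to insulin and sterol regulators, and a list's values do not show which regulator acted.

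**Figure D5:**
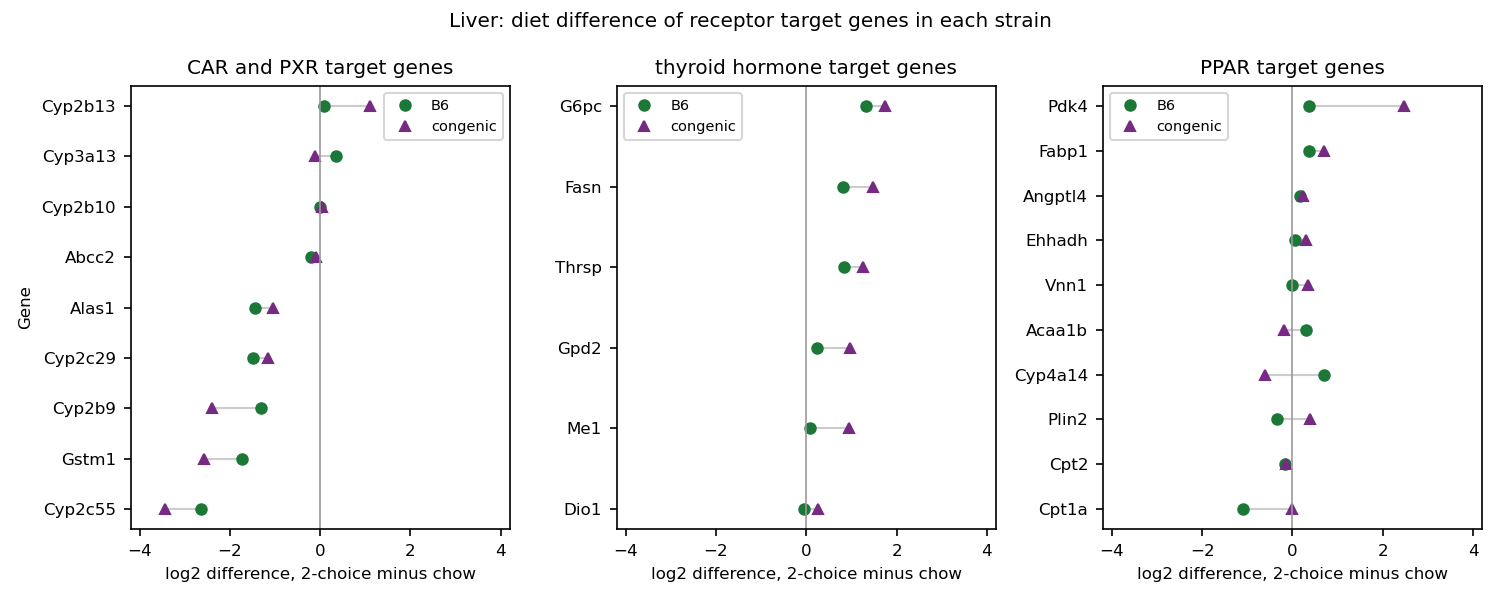
Liver log2 difference, 2-choice minus chow (x axis), of tested target genes (y axis) of CAR and PXR, of thyroid hormone receptors and of PPARs, with circles for B6 and triangles for the congenic pools. The 5 lowest CAR and PXR targets lie left of -1 in both strains and 3 thyroid hormone targets right of 0.8, while most PPAR targets lie close to 0.

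In hypothalamus Nr3c1 had the largest diet difference of the tested receptors, from 8.70 to 11.19 for B6 and from 9.19 to 11.12 for congenics. Both chow arrays were near or under the level of 9.17 and both 2-choice arrays well above. It was 4.61-fold higher on 2-choice (2.21 ± 0.54), and did not pass (limma adjusted p = 0.0878). Nr1d2 was higher by 0.83 and 1.13 (0.98 ± 0.23, limma adjusted p = 0.0847), Esrra by 1.85 and 0.70 (1.28 ± 0.36, limma adjusted p = 0.114) and Nr6a1 by 0.99 and 1.25 (1.12 ± 0.63, limma adjusted p = 0.339). Nr5a2 was lower, by -0.76 and -2.07 (-1.42 ± 0.56, limma adjusted p = 0.198). These were the 4 higher, against 22.6% of probes, and the 1 lower, against 17.5%, with the same sign in both strains and at least 1.5-fold (40.1% of probes either way). Nr6a1 on chow (8.70 and 9.08) and Nr5a2 on 2-choice (8.61 and 8.61) were under the level of 9.17. Both passed the filter only through the other diet, which in part sets these counts.

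limma called 0 of 20 receptors between diets in hypothalamus (4 at an unadjusted p under 0.05), against 1.02% of probes, 0.666% higher and 0.353% lower, and on the 4 hypothalamus arrays alone 0 of 20 (2 at an unadjusted p under 0.05), against 2.37%. With 1 hypothalamus array left out, 1 pair remains for diet and the error comes from the liver arrays alone, so only sizes are given. Without the congenic chow array Nr1d2 was at 0.84, Esrra at 1.91 and Nr3c1 at 2.59. Without the B6 chow array Nr1d2 was at 1.14, Nr2c1 at 2.88 and Ppara at 2.00. Without the B6 2-choice array they were at 1.15, 2.64 and 1.79. Without the congenic 2-choice array Esrra was at 1.81. Ppara was lower there (-0.84) and without the congenic chow array (-0.95), so its direction was not fixed. On median-centred values without quantile normalization the median of all probes was 0.79 higher on 2-choice, and 7633 of 19807 probes were called, 7167 of them higher. The receptors called there were Nr3c1 (2.44), Esrra (2.02), Nr1d2 (1.87), Nr2c1 (1.59), Rora (1.36), Thra (1.22), Nr1h3 (1.01), Rxrb (0.78) and Nr2f2 (0.78). These values include that shift of the median. Between the same arrays the anterior pituitary list had means of 9.34 and 9.13 on chow and of 12.05 and 11.12 on 2-choice, with Gh at 8.25 and 8.70 and then 14.50 and 12.17, and Prl at 9.13 and 8.58 and then 13.05 and 10.91. Of its other members Cga was also higher, while Lhb went from 10.03 and 10.22 to 9.63 and 9.79 and Tshb from 10.69 and 8.99 to 9.89 and 10.11. Oligodendrocyte markers had means of 12.91 to 12.93 on chow and 13.61 to 13.72 on 2-choice, and hepatocyte markers, Ttr among them, of 8.52 to 9.22 and 9.52 to 10.2. Endothelial markers had means of 8.91 to 8.98 on chow and 9.66 to 9.79 on 2-choice, and macrophage and microglia markers of 11.27 to 11.61 and 10.86 to 11.0. The part of these cell types in the values of receptors and targets was not tested.

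Between diets in hypothalamus 1 of 6 tested PPAR targets was called, where 1.02% of all probes were. FXR targets and CAR and PXR targets each had 1 of 3 called. Thyroid hormone targets had 1 of 5 and HNF4 alpha targets 1 of 4. None of 8 LXR targets and none of 7 retinoic acid genes was called. Acaa1b (1.53 ± 0.22), Cyp2c29 (2.20 ± 0.26), the malic enzyme gene Me1 (1.69 ± 0.26) and Ttr (2.57 ± 0.26), a thyroxine carrier made in liver and choroid plexus, rose in the fit of all 8 arrays, and Fetub fell by 1.38 ± 0.21. On chow, Acaa1b (8.05 and 8.90), Cyp2c29 (8.45 and 8.87) and Ttr in congenics (8.76) were under the level of 9.17 for testing. On 2-choice, Fetub in congenics (8.97) was under it too. None of these 5 passed on the 4 hypothalamus arrays alone (limma adjusted p of 0.068 to 0.389), and without the variance trend no probe was called. No glucocorticoid target was called among the 6 tested, with Fkbp5, a feedback regulator of the glucocorticoid receptor, at 0.91 ± 0.46 and a list median of 0.19. No coactivator or corepressor was called. For diet the same test between tissues had 0 of 15 receptors called by limma (3 at an unadjusted p under 0.05), with 0% of probes.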

How the data were processed

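Each of 8 single-channel arrays held RNA pooled from 6 male mice. Per the labels' protocols, 1 microgram of total RNA was transcribed into digoxigenin-labelled cRNA with an Applied Biosystems chemiluminescent kit. The deposited values are linear probe intensity, as the authors' series table gives them, and how the authors corrected background or normalized is not stated in the sources used here. The deposited distributions are the same within 0.244% in the strain pair of each tissue and diet and differ between pairs (median intensity 560, 1338, 700 and 702). Every diet comparison therefore crosses sets of arrays with unlike distributions, and how these sets arose was not established here.

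Groups came from the sample titles. Free-text descriptions differ from them for the hypothalamus congenic chow sample (B6 named) and for liver samples (hypothalamus named, and 2-choice for chow). Intensities were taken to log2 and quantile normalized over all 8 arrays, so that both tissues share a scale. Symbols came from the platform annotation, where 14411 of 33012 probes have 1 symbol, 247 several and 18354 none. No pool was repeated, and array number limits the precision. The p-values measure how far a difference varied between the strain and diet pairs, and cannot measure the spread between repeated pools.

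limma 3.58.1 (R 4.3.3) fitted the differences, with the trend option of eBayes and Benjamini-Hochberg adjustment over all probes tested. The tissue fit had 4 pairs as blocks (3 residual degrees of freedom), and the strain and diet fit 2. The fit was tested on simulated data. Other scalings, filters, variance models, samples and probe rules were run as alternatives. All receptors with a probe were named, and of each list up to 3 genes with the largest difference of the same sign in every pair, beside genes counted in groups of 5 or fewer, which were named after their values were seen. The receptors, lists and tests were chosen with earlier results of these data known.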

Additional observations from a re-analysis of the deposited data

Results flagged for a closer look

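Of the 15 receptors tested in both tissues, 4 had strain differences of one sign in both liver pairs and the other sign in both hypothalamus pairs, where 14.5% of 15458 probes did so. None of the differences between tissues passed (limma, adjusted p of 0.826 to 0.848). The liver strain difference minus that of hypothalamus was -0.50 for Rora, -1.69 for Nr2f1, -0.27 for Nr2f2 and -1.06 for Esrra. The Nr2f1 value rests on the liver 2-choice pair (-2.45) and that of Esrra on the hypothalamus chow pair as labelled (1.47).

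Diet differences had opposite signs in the tissues in 5 of the 15 receptors, where 19.9% of probes did so, and again none passed. The liver diet difference minus that of hypothalamus was -0.95 for Thra (limma adjusted p = 0.255), -1.16 for Nr1d2 (0.208), -0.61 for Nr1h3 (0.43) and -2.84 for Nr3c1 (0.199). For Nr5a2 it was 1.75 (limma adjusted p = 0.335). Nr3c1 was lower on 2-choice in both livers (-0.76 and -0.51) and higher in both hypothalami (2.49 and 1.92). With 1 hypothalamus array left out, the error comes from the liver arrays alone, so only sizes are given. Without the congenic chow array the same difference was -3.24 for Nr3c1, -1.22 for Thra, -1.54 for Esrra and 1.46 for Ppara. Without the congenic 2-choice array it was -1.20 for Thra and 1.36 for Ppara. Without the B6 2-choice array it was -2.48 for Nr2c1 and -1.28 for Ppara, and without the B6 chow array -1.49 for Ppara.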

How the results depend on the processing

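The tissue calls of 8 liver-high and 3 hypothalamus-high receptors held under every alternative run. The count of receptors called ran from 11 to 12 higher in liver and from 3 to 4 higher in hypothalamus when a pair was left out, and that of all probes, 9729, from 8334 to 9128. With the deposited log2 values and no further scaling 5579 probes were called, and Rora, Nr2c1, Esrra and Nr1d2 lost their calls. Between strains in liver the count of 0 became 189 on the liver arrays alone and 6 to 30 when an array was left out. In hypothalamus 0 became 1 on unscaled values, 1 on median-centred values, 1 on the hypothalamus arrays alone and 67 without both chow arrays, and 0 to 1221 when an array was left out. Between diets in liver 0 became 545 on the liver arrays alone and 9 to 112 when an array was left out. In hypothalamus 202 (132 higher, 70 lower) became 97 with quantiles within tissues (70 and 27), 15430 unscaled (15377 and 53), 7633 median-centred (7167 and 466), 128 without a filter, 123 with the stricter filter and 469 on the hypothalamus arrays alone. It was 0 in the limma fit without the variance trend (3411 at an unadjusted p under 0.05), and 21 to 2312 when an array was left out. The unscaled and centred settings moved the median of all probes by 2.05 and 0.79. For strain by tissue 0 became 44 without both hypothalamus chow arrays and 0 to 895 when an array was left out. For diet by tissue it became 10 with quantiles within tissues, 10781 unscaled and 3901 median-centred, and 1 to 1690 when an array was left out. Hypothalamus diet differences that passed with the other sign were Rxrb (2.03), Nr2e1 (1.97), Nr2f1 (1.75) and Nr2f2 (2.04) unscaled and Rxrb (0.78) and Nr2f2 (0.78) centred, all under or near the shift of the median. For diet by tissue these were Rxrb (-2.09) and Nr2f2 (-2.16) unscaled and Nr2f2 (-0.90) centred. In the strain and diet fits with 1 array left out, its tissue is fitted exactly and the error comes from the other tissue alone. Ppara in hypothalamus turned between arrays left out. Its strain difference ran from -1.40 to 1.38, and was 1.46 without both chow arrays. For diet it ran from -0.95 to 2.00, for strain by tissue from -1.52 to 1.25 and for diet by tissue from -1.49 to 1.46. The cause was not tested. Fits without both hypothalamus chow arrays were chosen after seeing the data. The strain and diet fit holds both factors within tissue, so strain was compared within diet and diet within strain. The tissue fit pairs arrays of the same strain and diet. The labels give no replicate numbers for a further block.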
